A study of Mus musculus with 6 samples.

Results

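RGS proteins (regulators of G-protein signalling) were described here by their transcripts in splenic NK cells with and without METTL3. The 8 members were Rgs1, Rgs2, Rgs3, Rgs10, Rgs14, Rgs16, Rgs18 and Rgs19, found by gene symbol among 14490 listed genes. All 8 were listed, and all 8 passed the filter on low values. WT samples came from Mettl3fl/fl mice and cKO samples from Ncr1Cre-Mettl3fl/fl mice, both of the C57BL/6 strain, with 3 samples per genotype. The floxed Mettl3 alleles were thus shared by both genotypes, and Cre, driven by the Ncr1 locus that encodes the NK receptor NKp46, was present in cKO samples only. NK cells were sorted from the spleens, and polyadenylated RNA was sequenced. The labels give no age and no added agent, and they do not say whether the samples of a genotype were separate mice.

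A receptor of the G-protein-coupled class, such as a chemokine or sphingosine-1-phosphate receptor, loads GTP onto a G alpha subunit, which then separates from G beta-gamma. RGS proteins share a domain that speeds up GTP hydrolysis by G alpha and so shortens the signal. In lymphocytes they are known for limiting responses to chemoattractants, and several of them are switched on rapidly when cells are activated. METTL3 is the catalytic subunit of the enzyme that methylates adenosine in mRNA, forming the mark m6A, usually within a short consensus of which GGACT is one form.

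Of the 8 transcripts, 2 fell and 2 rose in METTL3-deficient NK cells, where 18.8% of all genes fell and 17.8% rose. Rgs16, a regulator of Gi and Gq signalling, fell by 35.2%, and Rgs18, known mainly from megakaryocytes and platelets, fell by 37.5% at a low level. Rgs1, the most abundant member and a brake on chemokine receptor signalling in lymphocytes, rose by 13.4%. Rgs3, which also acts on Gi and Gq, rose by 6.74%. Rgs2, Rgs10, Rgs14 and Rgs19 did not pass the test.

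The sequences below are GGACT matches in the transcripts of Rgs16 and Rgs1, which carry the clearest fall and rise, and of Rgs18. Some of the matches toward the end of the coding sequence of other members follow. Each is a 25-base stretch of the sense strand, 5′ to 3′ in DNA letters, taken from GENCODE M21 transcripts on GRCm38, with GGACT in capitals. Distances run from the first base of GGACT to the last base of the stop codon. Coding matches at 86 bases before in Rgs14, 177 in Rgs3 and 180 in Rgs19 are among those not shown.
Rgs16, coding exon, chr1:153743731-153743755, plus strand, 114 bases before: tgatggagaaGGACTcctatccgcg
Rgs16, 3′ UTR, chr1:153744253-153744277, plus strand, 408 bases after: cctcactcctGGACTgggcctagaa
Rgs16, 3′ UTR, chr1:153745036-153745060, plus strand, 1191 bases after: ttccaagttgGGACTtccagcacca
Rgs16, 3′ UTR, chr1:153745308-153745332, plus strand, 1463 bases after: acgggacacgGGACTccccactgtg
Rgs1, coding exon, chr1:144246263-144246287, minus strand, 273 bases before: tggcttgtgaGGACTataagaaaac
Rgs1, 3′ UTR, chr1:144245048-144245072, minus strand, 240 bases after: aaatacagtgGGACTctattcaaac
Rgs1, 3′ UTR, chr1:144243371-144243395, minus strand, 1917 bases after: agtttctgtgGGACTgaatccaaat
Rgs18, 5′ UTR, chr1:144775269-144775293, minus strand, 749 bases before: ggagagagaaGGACTaaggaaatct
Rgs3, coding exon, chr4:62701100-62701124, plus strand, 276 bases before: tcgcttgcgaGGACTtcaagaaggt
Rgs3, coding exon, chr4:62702157-62702181, plus strand, 78 bases before: tcatggagaaGGACTcttaccctcg
Rgs19, coding exon, chr2:181689174-181689198, minus strand, 81 bases before: tcatgcaccgGGACTcgtaccctcg
Rgs2, coding exon, chr1:144001714-144001738, minus strand, 48 bases before: aattctaccaGGACTtatgtaaaaa

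The last coding match of Rgs16 sat in a stretch that Rgs3 and Rgs19 also carry. Of the 20 bases flanking GGACT there, Rgs16 and Rgs3 shared 16, Rgs19 and Rgs3 shared 15, and Rgs16 and Rgs19 shared 12. The coding match of Rgs1 had its own counterpart in Rgs3, with 13 of 20 flanking bases the same. Rgs16 and Rgs3, which share the closest pair of windows, differed in opposite directions between the genotypes.

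The letters GGACT are common among transcripts. Among 11804 transcripts searched on the sense strand, 91.6% held at least 1 match, with a median of 1.05 per kb and quartiles of 0.634 and 1.54. Rgs16 held 4 matches (1.71 per kb), 1 in the coding sequence and 3 in the 3′ UTR. Rgs1 held 3 (0.781 per kb), and Rgs18 held 1 (0.492 per kb), in the 5′ UTR. Among members that rose or did not pass the test, Rgs3 held 10 (2.57 per kb), Rgs10 3 (3.41 per kb), Rgs19 4 (2.65 per kb), Rgs2 4 (1.32 per kb) and Rgs14 1 (0.424 per kb). The falling transcripts thus lay above and below the median of all transcripts. A match is a stretch of letters and not a measured methylation site, and methylation was not analysed here.

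The targeted gene was examined first. Mettl3 fell from 1251 ± 56.0 to 334 ± 61.9 normalized read counts (SD, n = 3 each), a log2 fold change of −1.92, with no overlap of the genotypes. A normalized read count is the number of reads on a gene divided by the size factor of its sample. Ncr1, whose locus carries Cre in cKO samples, fell from 22394 ± 286 to 16918 ± 230. Reads on listed genes, estimated from the steps of the values, ran from 55965515 to 71464042 per sample. Over all genes, the log2 fold change had a median of 0.0014, and of 0.051 when samples were scaled to equal totals instead, so a small rise reads as larger under that scaling. Of all genes, 36.6% passed limma's test at an adjusted p under 0.05, with 2576 higher and 2731 lower, or 3487 higher and 2016 lower with equal totals. In bulk RNA, fewer cells that carry a transcript and less transcript per cell cannot be told apart.

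Markers of other cells were measured beside the members. They were read against all genes, of which 17.8% rose and 18.8% fell, or 3487 and 2016 genes with equal totals. Of 10 B-cell markers, 8 rose and none fell, and their summed level was 1444 to 1455 in WT and 1987 to 2067 normalized read counts in cKO, a difference of means of 573. Of 10 NK markers, 7 fell, among them Ncr1, Nkg7 and Klrb1c, and 2 rose, with sums of 841897 to 878470 in WT and 794407 to 832948 in cKO. Of 9 listed T-cell markers, 2 fell and 1 rose, and of 7 listed myeloid markers, 3 rose and 1, Lyz2, fell. None of 4 listed platelet markers and none of 5 listed erythroid markers passed the test, and the platelet sums of 738 to 825 in WT and 702 to 798 in cKO overlapped. Of 6 markers of type 1 innate lymphoid cells, only Il7r passed, and it rose. Their sums of 2044 to 2100 in WT and 2387 to 2528 in cKO did not overlap. The means differed by 409, of which Il7r gave 306. With equal totals, 2 of these 6 rose, 6 NK markers fell and 2 rose, and 8 B-cell markers rose. Under that scaling 2 T-cell markers rose and 1 fell, and 4 myeloid markers rose and 1 fell. No listed marker was at 0 in any sample.

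**Figure D1:**
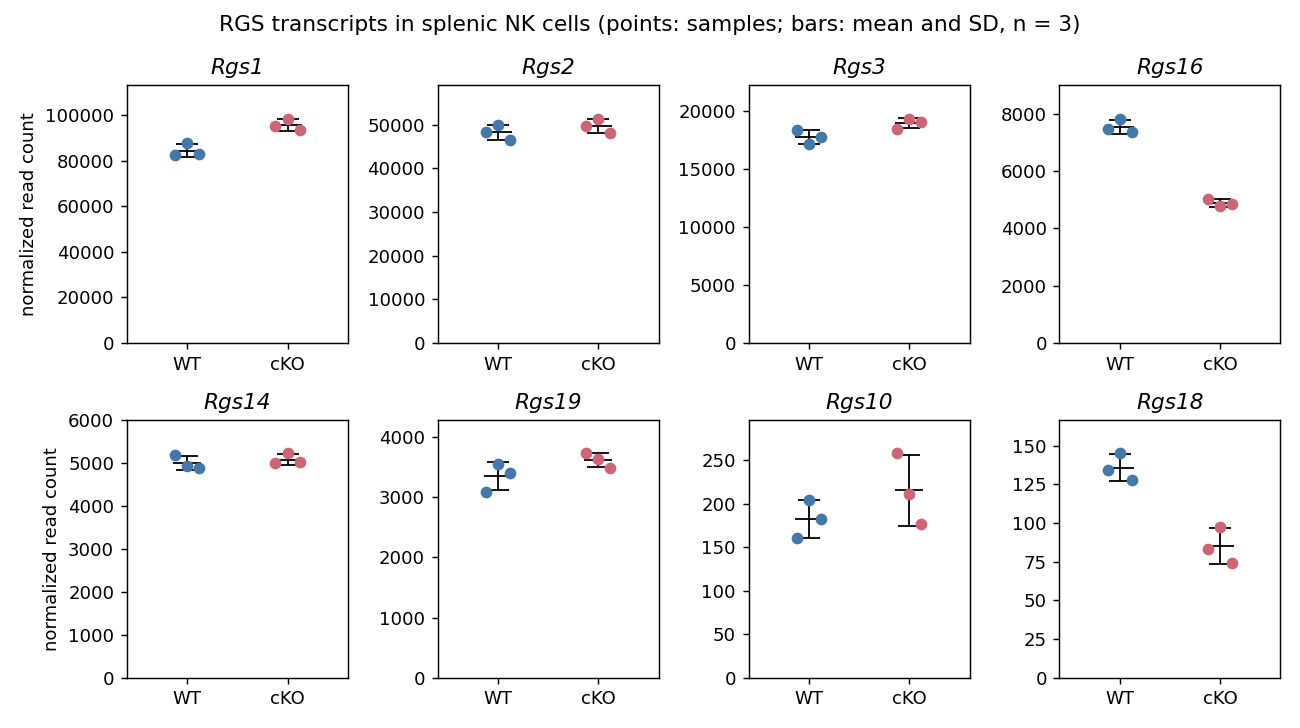
Normalized read count of each RGS transcript (vertical axes, from 0, with a separate scale per gene) in the 3 WT and 3 cKO samples, with points for samples and bars for the mean and SD. Rgs16 and Rgs18 lie lower in every cKO sample, Rgs1 and Rgs3 lie higher in every cKO sample, and the genotypes overlap for the other members.

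Rgs16 had the lowest p of the members. Its normalized read counts were 7452, 7825 and 7346 in the WT samples and 5029, 4773 and 4857 in the cKO samples. Every cKO sample lay far below every WT sample, and the gap between the genotypes exceeded the range within either. The mean went from 7541 ± 252 to 4886 ± 131 (SD, n = 3 each), a log2 fold change of −0.63 (SE 0.0377, 95% interval −0.70 to −0.55, limma adjusted p = 5.76e-13). By p, Rgs16 ranked 62 among all genes and 46 among those that fell, and 7.44% of all genes had a log2 fold change larger in size. An exact permutation test, with 20 ways to assign the samples, gave p = 0.1, its smallest possible value for 3 samples against 3.

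Rgs16 lies on chr1:153740349-153745468 on the plus strand. An antisense gene, Gm28513, overlaps it and shares 236 exonic bases. It is not among the listed genes, and whether reads were counted by strand is not given in the sources used here, so reads of the pair may not be told apart. Upstream, the noncoding gene C230024C17Rik lies 2519 bases away and had 17.2 and 26.9 normalized read counts (log2 fold change 0.68, adjusted p = 0.234). Over the 6 samples, the genes whose log2 values followed Rgs16 most closely among 11752 were AW549877, Dpf2 and Hist1h1d, with Pearson r of 0.999, 0.9985 and 0.9983. Such values mostly repeat the genotype difference, since the 6 samples fall into 2 groups, and they carry no p.

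Rgs18 gave a fall of similar size at a low level. Its normalized read counts were 134, 145 and 128 in WT and 83.4, 97.2 and 74.1 in cKO, resting on an estimated 81 to 135 reads per sample. The highest cKO sample was below the lowest WT sample. The mean went from 136 ± 8.76 to 84.9 ± 11.7 (SD, n = 3 each), with a log2 fold change of −0.68 (SE 0.195, limma adjusted p = 0.00743). Its 95% interval of −1.08 to −0.28 was wide, so the fall could be smaller or larger than that of Rgs16. Rgs18 is known from platelets and their precursors, and the listed platelet markers Itga2b, Gp1bb, Gp1ba and Clec1b did not pass the test, with log2 fold changes of −0.20, −0.13, 0.064 and 0.25. Their part in the result was not tested.

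Rgs1 was the highest member in every sample. It had 82683, 87977 and 83036 normalized read counts in WT and 95378, 98636 and 93676 in cKO. All cKO samples exceeded all WT samples, by a margin that was small beside the level itself. The mean went from 84565 ± 2960 to 95897 ± 2520 (SD, n = 3 each), a log2 fold change of 0.18 (SE 0.0314, 95% interval 0.12 to 0.25, limma adjusted p = 4.31e-05). B cells also express Rgs1, and the 10 B-cell markers rose by 573 normalized read counts in sum, while Rgs1 rose by 11331. The cells were purified by flow sorting. The marker sum does not give the amount of Rgs1 that any B cells would add, and the part of any B cells in the result was not tested.

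Rgs3 rose least of the transcripts that passed. Its normalized read counts were 18369, 17190 and 17739 in WT and 18470, 19354 and 19058 in cKO. The highest WT sample, replicate 1, lay just under the lowest cKO sample, also a replicate 1. The mean went from 17766 ± 590 to 18961 ± 450 (SD, n = 3 each), a log2 fold change of 0.094 (SE 0.0324, 95% interval 0.027 to 0.16, limma adjusted p = 0.0239). The call was lost when any of 4 samples was left out. Without WT replicate 2 the adjusted p was 0.126, without WT replicate 3 it was 0.0534, without cKO replicate 2 it was 0.0899, and without cKO replicate 3 it was 0.0624. Downstream of Rgs3 on the same strand, the noncoding gene Gm11210 begins 1979 bases away and rose from 75.5 to 113 normalized read counts (log2 fold change 0.61, adjusted p = 0.0365).

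Rgs2, which acts preferentially on Gq, was the second most abundant member and overlapped between the genotypes. It had 48366, 49908 and 46440 normalized read counts in WT and 49684, 51364 and 48122 in cKO. The log2 fold change was 0.044 (SE 0.0322, adjusted p = 0.311), and its 95% interval of −0.022 to 0.11 bounded any difference to a size below that of Rgs1. Scaled to equal totals, the value was 0.094 with an adjusted p of 0.0128, while the median of all genes shifted by 0.049 under that scaling.

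Rgs19, also called GAIP, binds Gi-class subunits and lies at the membrane of vesicles. Its normalized read counts were 3091, 3550 and 3402 in WT and 3731, 3637 and 3489 in cKO. Only the highest WT sample, replicate 2, reached into the range of cKO. The log2 fold change was 0.11 (SE 0.0478, 95% interval 0.016 to 0.21, adjusted p = 0.0634). The adjusted p was 0.0148 without WT replicate 2 and 0.042 without cKO replicate 3, with log2 fold changes of 0.16 and 0.14, and 0.00912 with equal totals. It was 0.386 without WT replicate 1, the lowest sample, where the log2 fold change was 0.058. On the opposite strand, Tcea2 ends 347 bases from Rgs19 and had a log2 fold change of 0.085 (adjusted p = 0.363).

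Rgs14 joins the RGS domain to Ras-binding domains and to a motif that holds Gi in its GDP form. It had 5188, 4919 and 4875 normalized read counts in WT and 4993, 5221 and 5015 in cKO, and the genotypes overlapped throughout. The log2 fold change was 0.024 (SE 0.0390, 95% interval −0.056 to 0.10, adjusted p = 0.679). Rgs10, a small protein that is little more than the RGS domain, had 161, 205 and 182 in WT and 258, 212 and 176 in cKO. Its cKO samples held both the highest value and 1 of the lowest, and the log2 fold change of 0.23 had a 95% interval of −0.099 to 0.55 (SE 0.158, adjusted p = 0.285). This interval holds both 0 and the 0.18 seen for Rgs1.

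**Figure D2:**
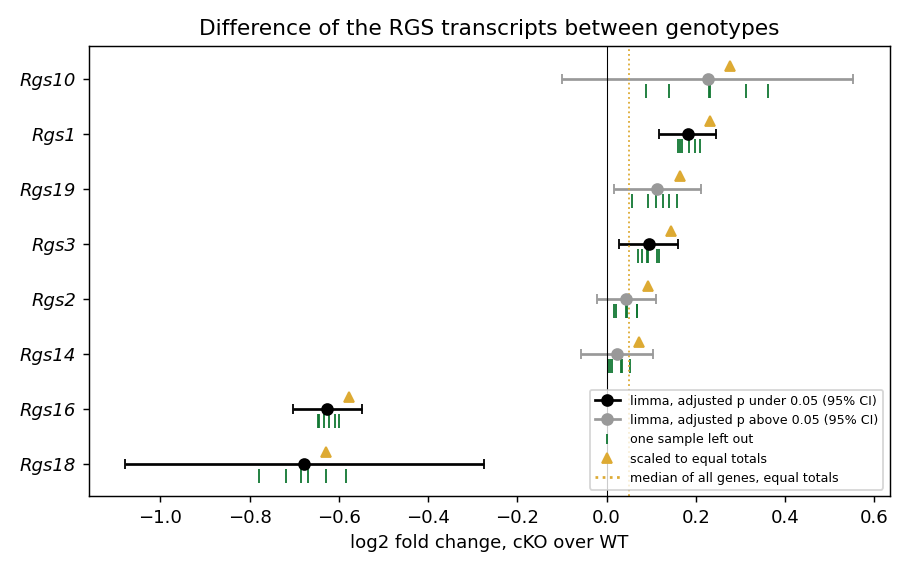
Log2 fold change of each RGS transcript, cKO over WT, with circles and lines for limma's estimate and its 95% interval (black where the adjusted p is under 0.05), green ticks for fits with 1 sample left out and triangles for equal totals. The estimates of Rgs16 and Rgs18 stay between −0.78 and −0.58 in every fit drawn, and those of the other 6 members lie above 0. The 95% intervals of Rgs2, Rgs10 and Rgs14 include 0.

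The share of members that passed was read against that of all genes, and neither direction stood far from it. Of 8 members, 4 passed the test, where 36.6% of all genes did, 2 rose, where 17.8% of all genes did, and 2 fell, where 18.8% did. The genotypes did not overlap for 4 members and for 45.7% of all genes. By the study's own limits, which ask for an unadjusted p under 0.05 and a change of more than 1 on the log2 scale in either direction, none of the members and 1.75% of all genes passed. The median log2 fold change of the members was 0.069, and their median size was 0.148, against 0.17 for all genes. The exact permutation p was 0.1 for Rgs1, Rgs3, Rgs16 and Rgs18, 0.2 for Rgs19, 0.3 for Rgs10 and 0.5 for Rgs2 and Rgs14.

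The members differ widely in abundance, which was compared per kb of each gene's principal transcript. In WT, the levels were 22017 normalized read counts per kb for Rgs1, 15967 for Rgs2, 4569 for Rgs3, 3224 for Rgs16, 2216 for Rgs19, 2120 for Rgs14, 208 for Rgs10 and 66.8 for Rgs18. In cKO, they were 24967 for Rgs1, 16459 for Rgs2, 4877 for Rgs3, 2089 for Rgs16, 2395 for Rgs19, 2155 for Rgs14, 245 for Rgs10 and 41.8 for Rgs18. Rgs1 and Rgs2 stood at percentiles 98.24 and 97.62 of all genes by this level, and Rgs18 at 18.08. Over the 6 samples of both genotypes together, the ranges of Rgs16 and Rgs19 overlapped, as did those of Rgs19 and Rgs14, while all other neighbours in the order were apart. Within a genotype, Rgs16 and Rgs19 were apart. As a percentage of the summed level per kb, Rgs16 ran from 6.37 to 6.44 in WT, above the 4.10 to 4.57 of Rgs19. In cKO, Rgs16 ran from 3.74 to 4.05, below the 4.41 to 4.65 of Rgs19. In WT, Rgs16 was the fourth highest member, and in cKO its mean came below those of Rgs19 and Rgs14, although the cKO ranges of Rgs16 and Rgs14 overlapped. With the length of all exons of a gene in place of the principal transcript, Rgs2 took the first place in WT, with 40.1% of the summed level against 36.7% for Rgs1. With that length, Rgs16 stood above Rgs3, Rgs19 and Rgs14 in both genotypes, so its drop in rank depends on the length used. It then held 9.71% in WT and 6.09% in cKO, against 4.96% and 5.11% for Rgs3.

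The summed level of the 8 members was higher in cKO. It was 165444, 171718 and 163147 normalized read counts in WT and 177626, 183294 and 174466 in cKO, a rise of 7.01% in the mean (exact permutation p = 0.1, the smallest possible). The genotypes did not overlap, and the means differed by 11692 in net. Rgs1 rose by 11331, Rgs3 by 1195 and Rgs2, which did not pass the test, differed by 1485, while Rgs16 fell by 2655. Within a sample, the share of a member in the summed level per kb does not depend on the scaling between samples. Rgs1 made up 43.7% ± 0.523 of this sum in WT and 46.9% ± 0.132 in cKO, and Rgs16 6.40% ± 0.0382 and 3.93% ± 0.167 (SD, n = 3 each). The share of Rgs2 went from 31.7% ± 0.446 to 30.9% ± 0.246, although its level did not pass the test. With the length of all exons, the Rgs2 difference was −0.15 percentage points in place of −0.77, and its shares overlapped. Shares did not overlap between the genotypes for Rgs1, Rgs2, Rgs16 and Rgs18, while those of Rgs3, Rgs10, Rgs14 and Rgs19 overlapped. The exact permutation p of each separated share was 0.1 (0.2 adjusted over 8 members). The shares of a sample add up to its whole, so they are not independent, and a larger share of Rgs1 leaves less for the others. For Rgs1, Rgs16 and Rgs18, the separations restate differences already given.

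**Figure D3:**
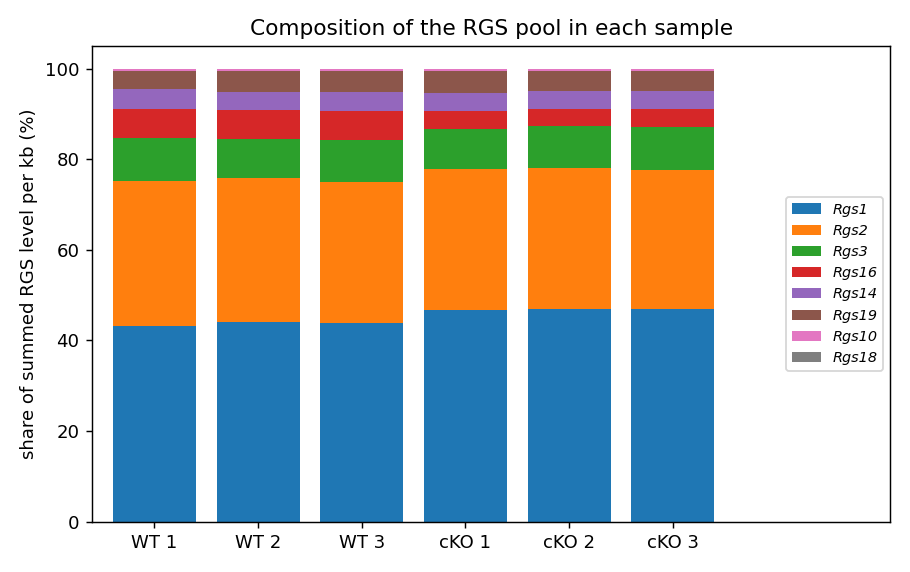
Share of each RGS transcript in the summed level per kb of the 8 members (vertical axis, percent) for each WT and cKO sample. The band of Rgs16 narrows from 6.40% in WT to 3.93% in cKO on average, the band of Rgs1 widens from 43.7% to 46.9%, and the bands of Rgs10 and Rgs18 are too thin to see.

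As a description within samples, with no test since Rgs16 and Rgs1 were paired for their opposite changes, the log2 ratio of Rgs16 to Rgs1 normalized read counts was −3.47, −3.49 and −3.50 in WT and −4.25, −4.37 and −4.27 in cKO. The values of each genotype lay close together. The ratio does not depend on the scaling between samples and otherwise restates the fall of Rgs16 and the rise of Rgs1.

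Of the 8 members, 4 sit on chromosome 1, and neighbours there moved in different directions. Rgs2, Rgs1 and Rgs18 follow each other on the minus strand within 776098 bases, at chr1:143999338-144004161, chr1:144242296-144249242 and chr1:144752683-144775435. The gaps between them are 238134 and 503440 bases, and no other listed gene lies between them. From Rgs2 to Rgs18, the log2 fold changes were 0.044, 0.18 and −0.68. Among listed genes, the one that rose and the one that fell were thus direct neighbours. Rgs16 lies 8964913 bases beyond Rgs18 on the other strand. Beside Rgs2, Uchl5 had a log2 fold change of −0.11 (adjusted p = 0.151). Rgs3 lies at chr4:62559847-62704001, Rgs10 at chr7:128373621-128418758, Rgs14 at chr13:55369732-55384687 and Rgs19 at chr2:181688419-181693977.

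The other listed genes named Rgs were Rgs9, Rgs11 and Rgs12, and none of these 3 passed the test. Rgs12 went from 550 to 563 normalized read counts, and Rgs9 and Rgs11 had means of at most 156. Of 14 listed proteins that carry an RGS-type domain within another protein, 4 rose and 2 fell, or 6 and 1 with equal totals. Among all genes, 17.8% rose and 18.8% fell, or 3487 and 2016 genes with equal totals. Axin2 and Axin1, scaffolds of the Wnt pathway, rose with log2 fold changes of 0.50 and 0.22, Arhgef11 with 0.37 and Akap10 with 0.16. Grk5 and Grk6, kinases that desensitize receptors, fell by 0.26 and 0.088 on the log2 scale.

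Among the partners of the RGS proteins, G alpha transcripts passed the test in both directions and those of G beta-gamma only downward. Of 11 G alpha genes, 3 fell and 3 rose, where 18.8% of all genes fell and 17.8% rose. The Gi subunits on which most members act, Gnai2 and Gnai3, fell from 37234 to 33056 and from 17243 to 14286 normalized read counts (log2 fold changes −0.17 and −0.27), and Gnal fell with −0.61. Gnaq and Gna15 of the Gq class rose with 0.17 and 0.36, and Gna13 with 0.087. Of 10 G beta and gamma genes, 4 fell, namely Gngt2, Gng5, Gnb2 and Gnb1, and none rose. Of 7 listed chaperones, exchange factors and nucleotide dissociation inhibitors of G alpha, Ric8b rose while Gpsm1 and Gpsm3 fell, and with equal totals neither of the falls passed the test.

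Most of the chemoattractant receptors that feed into these G proteins rose. Of 12 chemoattractant receptors, 8 rose and 2 fell, Ccr7 among them, where 17.8% of all genes rose and 18.8% fell. With equal totals 9 rose and none fell. Under that scaling the median of all genes shifted up by 0.049, and 3487 of all genes rose and 2016 fell. S1pr1, the sphingosine-1-phosphate receptor that guides lymphocytes out of tissues, rose from 2342 ± 106 to 5850 ± 150 normalized read counts (SD, n = 3 each), a log2 fold change of 1.32. Cxcr3 and S1pr4 rose with 0.81 and 0.72. Of 12 other receptors, 3 rose and 4 fell, among them Gpr65 with −0.43 and Adora2a with −0.35, while Ptger3 rose from 5.26 to 30.4 normalized read counts.

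Downstream, 7 of 26 effector genes rose and 10 fell, or 9 and 7 with equal totals. Pik3r5 and Pik3r6, the regulatory subunits of the PI3-kinase that G beta-gamma activates, rose with log2 fold changes of 0.50 and 1.37, Pik3r6 from a low level of 62.5. Prkar1a, a regulatory subunit of protein kinase A, fell with −0.36, Pde4b, which degrades cyclic AMP, with −0.32 and Plcb4 with −0.43. Over all these lists outside the members, 53 of 95 genes passed the test, 26 upward and 27 downward, where 36.6% of all genes passed. With equal totals 32 passed upward and 18 downward, so the even split depends on the scaling. Over the 95 genes, the log2 fold change had a median of −0.048 and a median size of 0.18. As transcripts of several RGS genes appear quickly upon activation, 21 immediate early genes were also counted. Of these, 7 rose and 7 fell, led by Fos with 0.82 and Nr4a3 with −0.41, and with equal totals 11 rose and 3 fell. Among all genes, 17.8% rose and 18.8% fell, or 3487 and 2016 genes with equal totals. Of 7 markers of late NK maturation, 3 rose and Klrg1 fell, and of 6 early markers, 2 rose and Kit fell.

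**Figure D4:**
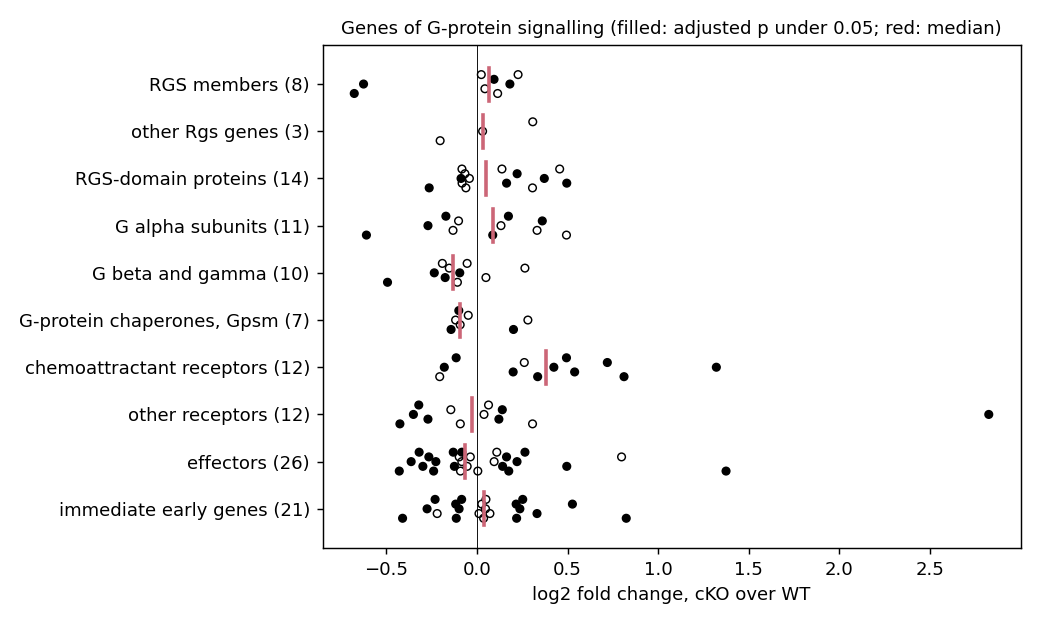
Log2 fold change, cKO over WT, of every listed gene of G-protein signalling and of the immediate early genes, by list (number of genes in brackets), with filled points for an adjusted p under 0.05 and red lines for medians. Rgs16 and Rgs18 are the filled points at the left of the RGS members, and S1pr1 at 1.32 and Ptger3 at 2.82 lie farthest to the right among the receptors.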

How the data were processed

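mRNA-seq of splenic NK cells from 3 WT and 3 cKO samples was analysed. Per the labels and methods, libraries were made with the NEBNext Ultra RNA kit, and the authors used HISAT2 for alignment to GRCm38, featureCounts for counts per gene and DESeq2 for normalization. The submitters' processing notes give versions 2.0.5, 1.5.0-p3 and 1.16.1, and the study's methods give other versions of HISAT2 and DESeq2. The deposited sample columns hold a signal, read counts divided by a size factor per sample. The authors' mean, fold change, statistic and p-value columns were not used. Reads were estimated from the steps of the values. No count test was run on them, because a separate check of whole reads failed for most samples.

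A pseudocount of 1 was added before taking log2. The filter, 1 normalized read count or more in 3 or more samples, left every gene in. The genotypes were compared with limma (3.58.1, R 4.3.3) and its variance trend (two-sided, Benjamini-Hochberg over 14490 genes, threshold 0.05). Small sets of values were compared by exact permutation tests. The steps were tested on simulated data. The p-values measure the spread between these samples, which may be technical. Members, gene lists and tests were chosen with earlier results of these data known. Genes named are all members, Mettl3, Ncr1, genes next to members (not all are reported here), the 3 genes most correlated with the member of lowest p, and up to 3 called genes of largest change per list and direction. Other genes named were chosen after their values were seen. Of the symbols, 97.3% matched GENCODE M21, which gave positions, lengths and sequences, and 19 were spreadsheet dates.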

Additional observations from a re-analysis of the deposited data

How the results depend on the processing

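The 8 members were refitted under 12 alternatives: leaving out each of 6 samples, scaling to equal totals, a replicate block, limma-voom, no filter or one of 1 CPM, and a pseudocount of 0.1. The fit with no filter repeats the main fit, since the main filter left every gene in, and so adds no check. Between 3 and 4 members passed with a sample left out, and 6 with equal totals. Rgs1, Rgs16 and Rgs18 passed in all 12, Rgs3 in 8, Rgs19 in 3, Rgs2 in 1, and Rgs10 and Rgs14 in none, and no member changed direction. Log2 fold changes ran from 0.16 to 0.23 for Rgs1, −0.65 to −0.58 for Rgs16, −0.78 to −0.58 for Rgs18 and 0.071 to 0.14 for Rgs3, and adjusted p for Rgs18 from 0.00543 to 0.0367. With a 1.5-fold limit in the study's rule, 2 members passed, Rgs16 and Rgs18. Genes of the pathway lists that passed numbered 44 to 52 with a sample left out, and all genes 4417 to 4922.

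Without length, the share of Rgs16 differed by −1.78 percentage points between the genotypes and that of Rgs18 by −0.034, against −2.47 and −0.054 per kb. With the length of all exons, an alternative chosen after seeing the data, Rgs16 differed by −3.63, Rgs18 by −0.080 and Rgs2 by −0.15, against −0.77 for Rgs2 per kb. These shifts follow from the lengths used.

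With the replicate number as a block, 4 members and 5543 of all genes passed, against 5307. Same-numbered samples deviated together with r of −0.024, 0.12 and 0.045 over 11753 genes. These values showed no strong shared deviation and cannot settle whether the samples were paired. WT replicate 2 and cKO replicate 2 had the highest r of all WT and cKO pairs, but not every sample correlated best with its own number. The planned count tests on recovered reads were not run. Rgs18 rested on 135 reads or fewer per sample, which limits its precision.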
